A study of Mus musculus with 4 samples.

Results

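The 5 genes described here, Ccl3, Ccl4, Ccl7, Ccr1 and Ccr2, are the CC chemokines and CC chemokine receptors chosen by name from the 328 genes of a Xenium in situ panel. The assay yields no sequence reads. Each detected transcript is decoded in place on a tissue section, with a position, a quality score and the cell it lies in. On all 4 slides, those decoded with a score of 20 or more were assigned to cells and summed over 17 tissue sections, so a value below is the gene's count in every 1000000 transcripts of all panel genes (CPM) in a section or in one class of its cells. The mice carried a doxycycline-inducible Pitx1 transgene under a Tet-responsive promoter, with the transactivator driven by Krt5, a gene of basal keratinocytes, so the transgene is switched on in keratinocytes. Control animals received vehicle (normal chow) and PITX1+ animals received doxycycline in the chow. Formalin-fixed dorsal skin came from male and from female mice on separate slides, wounded dorsal skin from males on day 4 after surgery on another slide, and buccal mucosa, from Control mice of both sexes without doxycycline, on the last. The ages of the mice are not given in the sources used here.

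CC chemokines are small secreted proteins that guide leukocytes through G protein-coupled receptors. CCL3 and CCL4, the macrophage inflammatory proteins, are released by activated neutrophils, macrophages and lymphocytes, and CCL7, a monocyte chemoattractant protein, by stromal cells and macrophages. CCR1 binds CCL3 and CCL7 and is carried by neutrophils and macrophages, and CCR2 binds CCL7 and marks monocytes newly arrived from blood. After a skin wound neutrophils enter first and monocytes follow, and the receptors above are known for their part in both.

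The labels name the conditions of a slide but not of a section, so condition was taken from position. The sections of a slide were ordered from left to right. The first of each skin slide with 3 sections and the first 2 of the slide with 4 were taken as Control and the rest as PITX1+. This gave Control sections 1 and 2 and PITX1+ sections 1 and 2 on the female slide, Control section 3 and PITX1+ sections 3 and 4 on the male slide, 1 Control wound, PITX1+ wounds 1 and 2, and 7 buccal sections. Pitx1 itself, counted in keratinocyte-like cells, was at 14.0 CPM in Control section 3 and at 1070 and 870 CPM in PITX1+ sections 3 and 4, and at 51.3 CPM in the Control wound against 645 and 323 CPM in the PITX1+ wounds. On the female slide it did not follow the assignment. It was at 58.4 and 53.3 CPM in the sections assigned to Control and at 42.5 and 79.5 CPM in those assigned to PITX1+. The female sections so assigned differed in other measures, with 17335 and 11778 cells in those assigned to Control against 57231 and 75268, and with 0 and 0 neutrophil-like cells against 209 and 84. Condition was not taken from any of these values, and levels are given by section or by slide wherever it matters.

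The sections held 2449 to 75268 cells with at least 10 transcripts, and 134076 to 5560941 transcripts. The median cell had 26 to 32 transcripts in Control skin, 37 to 87 in PITX1+ skin, 41 to 125 in buccal mucosa and 58 to 62 in the wounds. Detection of the 5 genes was uneven across slides. Of the Ccl4 transcripts decoded at any quality, 62.9% reached the quality minimum on the wounded slide, 41.2% on the female slide, 7.65% on the male unwounded slide and 3.33% on the buccal slide, where the median panel gene reached 72.4% to 83.1%. Ccl4 was at 0.828 times the mean negative control probe on the male unwounded slide, 1.33 times on the buccal slide, 2.72 times on the female slide and 27.2 times on the wounded slide. For Ccl3 these multiples were 5.96, 1.51, 8.45 and 152. A value of Ccl4 outside the wounds is therefore close to the assay's background, and so is one of Ccl3 on the buccal slide. In unwounded skin Ccl3 was at 4.95 times the probe or more in every section but Control section 3 and PITX1+ section 4. It was at 2.87 and 1.01 times the probe in those sections.

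Genomic sequence was at hand for 3 of the 5 genes. Ccl3 and Ccl4 are neighbours on chromosome 11, which also holds Ccl7, and Ccr1 and Ccr2 lie on chromosome 9. Because the transgene encodes a homeodomain factor whose family binds TAATCC, the 250 bases before each start were searched for these letters on both strands. They are printed 5' to 3' in the direction of the gene from RefSeq (GRCm38.p6), with a match in capitals. The deposited files name no genome build, and the windows are shown to place the genes and not as measured regions.
Ccl3 (chr11:83649379-83649628, minus strand): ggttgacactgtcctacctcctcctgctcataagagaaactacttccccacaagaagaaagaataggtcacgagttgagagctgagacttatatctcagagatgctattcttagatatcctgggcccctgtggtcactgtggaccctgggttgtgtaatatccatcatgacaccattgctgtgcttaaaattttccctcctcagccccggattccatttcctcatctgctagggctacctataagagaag
Ccr1 (chr9:123968693-123968942, minus strand): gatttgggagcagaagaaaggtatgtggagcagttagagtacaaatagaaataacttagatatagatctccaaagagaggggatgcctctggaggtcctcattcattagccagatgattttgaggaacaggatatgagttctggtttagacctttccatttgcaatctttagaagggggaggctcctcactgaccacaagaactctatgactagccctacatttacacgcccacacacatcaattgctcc
Ccr2 (chr9:124101933-124102182, plus strand): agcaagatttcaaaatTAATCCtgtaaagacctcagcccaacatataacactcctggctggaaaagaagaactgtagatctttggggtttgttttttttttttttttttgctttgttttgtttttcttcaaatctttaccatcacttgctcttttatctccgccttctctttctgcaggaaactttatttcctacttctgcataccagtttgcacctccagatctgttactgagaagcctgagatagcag
The letters stood once in the Ccr2 window, 234 bases before the start, and not in the windows of Ccl3 and Ccr1. Of 32851 mouse windows of this length, 6.25% hold them.

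All 5 genes were higher in the day 4 wounds than in unwounded male skin, with Ccl3, Ccl4 and Ccr1 far above and Ccl7 and Ccr2 moderately above. Ccl3 stood at 3492 CPM in the Control wound and at 2848 and 3130 CPM in PITX1+ wounds 1 and 2, against 82.8 CPM in Control section 3 and 126 and 8.06 CPM in PITX1+ sections 3 and 4. Ccr1, its receptor, stood at 3405, 3672 and 5834 CPM in the same wounds against 264, 338 and 233 CPM in unwounded skin. The groups did not overlap for either gene. Here and below, how many other panel genes were as separate was not counted.

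Ccl4 was at 535, 458 and 564 CPM in the wounds against 6.72, 15.3 and 2.45 CPM, the latter from 3, 43 and 7 transcripts. Ccl7 was at 1739, 1945 and 1734 CPM in the wounds against 515, 823 and 392 CPM. Ccr2 was at 1344, 1274 and 1021 CPM against 472, 497 and 537 CPM. Again no unwounded section reached a wound.

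In edgeR's quasi-likelihood test of the 3 wounds against the 3 unwounded male sections, with condition as a covariate, all 5 genes passed an adjusted p of 0.05, where 32.3% of the panel passed in either direction, 22.9% higher and 9.45% lower. The log2 fold change was 5.56 (SE 0.96, adjusted p = 0.00697) for Ccl3, 6.09 (SE 0.78, adjusted p = 0.00174) for Ccl4 and 4.05 (SE 0.42, adjusted p = 0.000812) for Ccr1. It was 1.74 (SE 0.39, adjusted p = 0.0154) for Ccl7 and 1.35 (SE 0.34, adjusted p = 0.0252) for Ccr2. Wounded and unwounded skin lay on different slides, so wounding and slide cannot be told apart, and nothing in the labels says that the sections came from separate animals, so p-values measure the spread between sections. The paper's figure legends give 3 Control, 4 PITX1+ and 7 buccal samples, and 1 Control and 2 PITX1+ wounds. They name mice only for the PITX1+ skin. The call for Ccr2 was lost without PITX1+ section 3 or 4 or without either PITX1+ wound, and that for Ccl7 without PITX1+ section 4 or PITX1+ wound 1. Then 3 or 4 of the 5 passed. The size for Ccl4 depended on the quality minimum, which 7.65% of its decoded transcripts reached on the unwounded male slide and 62.9% on the wounded slide. Counted at any quality, its log2 fold change was 2.71 (adjusted p = 0.00500). With 1 Control wound, Control was not tested against PITX1+ within the wounds, and those values are given side by side.

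**Figure D1:**
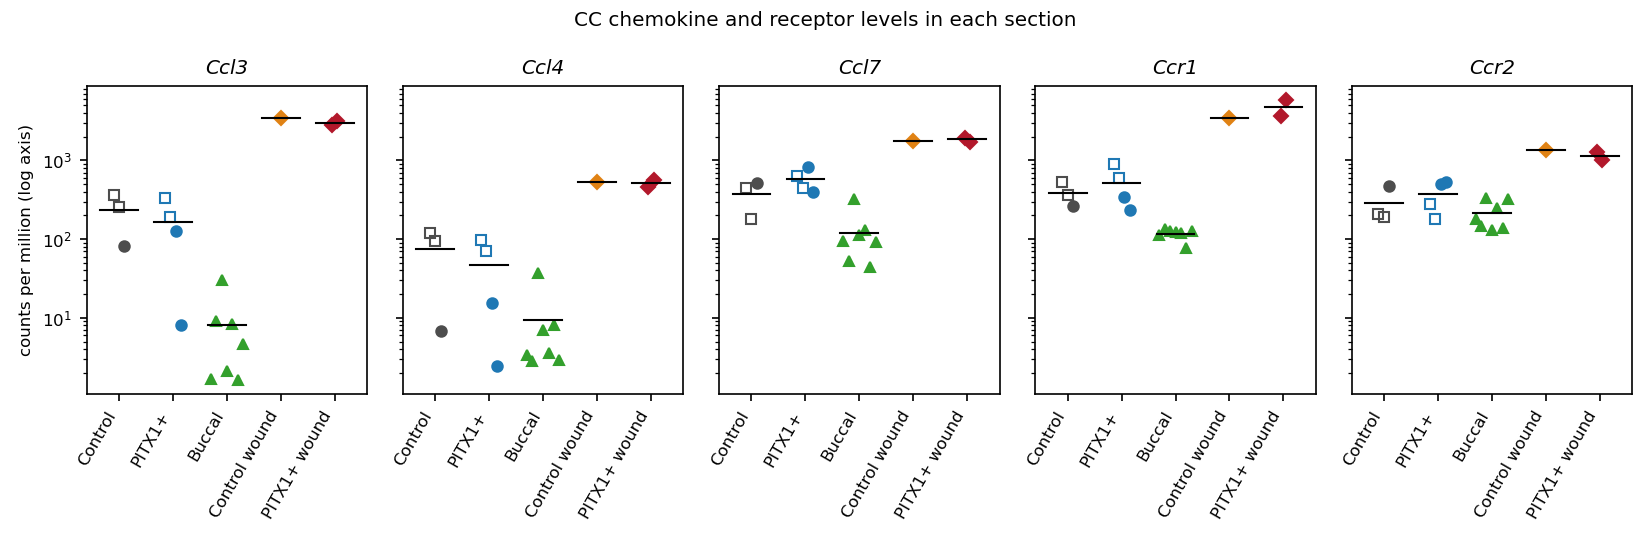
Level of each of the 5 genes in every section, as CPM on a log axis, by group (open squares female slide, circles male unwounded slide, triangles buccal slide, diamonds wounded slide, black line the mean). The 3 wounds lie above every unwounded section for all 5 genes, with Ccl3 at 2848 to 3492 CPM, while the buccal sections hold Ccl3 at 1.62 to 29.8 CPM.

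Cells were placed in classes by clustering without the 10 CC genes of the panel, and a class was named from a list of marker genes. Neutrophil-like cells (markers such as S100a8, Il1b, Cxcr2 and Trem1) made up 20.9% of the cells of the Control wound, 16.4% of PITX1+ wound 1 and 23.0% of PITX1+ wound 2, or 3821, 6265 and 15388 cells. In unwounded skin they were close to missing, with 0, 0 and 12 cells in the Control sections and 209, 84, 164 and 37 in PITX1+ sections 1 to 4. In a sum over a section, more cells of a type and more RNA per cell cannot be told apart, so levels within a class are given next.

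In the wounds Ccl3 came from the neutrophil-like cells. They held 85.2% of its transcripts in the Control wound (95% Wilson interval 84.2 to 86.1), 72.3% in PITX1+ wound 1 (71.4 to 73.2) and 70.7% in PITX1+ wound 2 (70.0 to 71.3), intervals that cover counting error only. Within these cells Ccl3 was at 44856, 29192 and 17077 CPM, and 57.9%, 45.4% and 37.4% of them had at least 1 transcript. Macrophage-like cells (C1qa, Mrc1, Csf1r) were far lower, at 1491, 1640 and 3115 CPM. Fibroblast-like cells were lower again, at 163, 200 and 436 CPM.

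The source of Ccl4 was alike. Neutrophil-like cells held 81.6% (78.8 to 84.0), 76.0% (73.8 to 78.1) and 77.4% (75.9 to 78.9) of Ccl4 transcripts in the Control wound and PITX1+ wounds 1 and 2, at 6580, 4939 and 3370 CPM. Neutrophil-like cells with a Ccl3 transcript also held more Ccl4 than those without, at 7180 against 5461 CPM, 9182 against 2085 CPM and 6786 against 1368 CPM. The Ccl4 level was higher in cells with Ccl3 in all 3 wounds, least so in the Control wound.

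Ccl3 in keratinocyte-like cells ran the other way between the wounds than in neutrophil-like cells. It was at 47.0 CPM in the Control wound, and at 834 and 504 CPM in PITX1+ wounds 1 and 2, where these cells held 13.8% (13.1 to 14.5) and 5.24% (4.91 to 5.58) of the transcripts against 0.598% (0.426 to 0.838). Both PITX1+ wounds lay above the Control wound, which has no replicate. The mean negative control probe in these cells was at 30.7 CPM in the Control wound and 54.4 CPM over the PITX1+ wounds. The Ccl3 value of the Control wound is thus close to background. Ccr1 in keratinocyte-like cells was also lowest in the Control wound, at 120, 638 and 1375 CPM. Transcripts of adjoining cells can be assigned to a keratinocyte by the segmentation, and the part of the neutrophil-like cells in these values was not tested.

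Ccl7 had another source. Fibroblast-like cells (Col1a1, Pdgfra, Lum) held 53.0% (51.1 to 54.8), 63.0% (61.8 to 64.1) and 68.1% (67.1 to 69.0) of its transcripts in the Control wound and PITX1+ wounds 1 and 2, at 4237, 5622 and 4114 CPM. Macrophage-like cells held 34.2%, 25.8% and 19.3%, at 4151, 3658 and 2013 CPM. Neutrophil-like cells were low, at 696, 824 and 662 CPM. Among the fibroblast-like clusters with at least 500 cells in a group, the one led by Cxcl5, Timp1, Saa3 and Ptx3 had the highest Ccl7, at 7352 CPM in the Control wound and 6581 CPM over the PITX1+ wounds, and it was nearly missing from Control skin, with 5 cells.

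The receptors differed in the class with the highest level, and macrophage-like cells held both. Ccr1 was highest in neutrophil-like cells, at 28436, 24499 and 23077 CPM in the Control wound and PITX1+ wounds 1 and 2, where they held 55.4% (54.0 to 56.7), 47.1% (46.2 to 48.0) and 51.2% (50.7 to 51.8) of its transcripts. Macrophage-like cells held 26.2%, 25.9% and 22.1% of Ccr1, at 6233, 6925 and 7735 CPM. Ccr2 was highest in macrophage-like cells, at 6123, 5929 and 3156 CPM, with 65.3% (63.2 to 67.3), 63.8% (62.3 to 65.2) and 51.5% (50.2 to 52.8) of its transcripts. Clusters of that class differed. Ccr2 was at 15210.5 CPM in the Control wound and 10727 CPM over the PITX1+ wounds in the cluster led by Mgl2 and Napsa. It was at 4267 and 3721 CPM in that led by Cd209f and at 4187 and 2117 CPM in that led by Mmp12. With 60 clusters, a cluster led by Napsa, Mgl2 and Cd74 counted as dendritic-like. T or NK-like cells followed the macrophage-like class in Ccr2, at 3825, 4386 and 5184 CPM, above the macrophage-like level in PITX1+ wound 2. Neutrophil-like cells carried little Ccr2, at 610, 716 and 636 CPM.

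**Figure D2:**
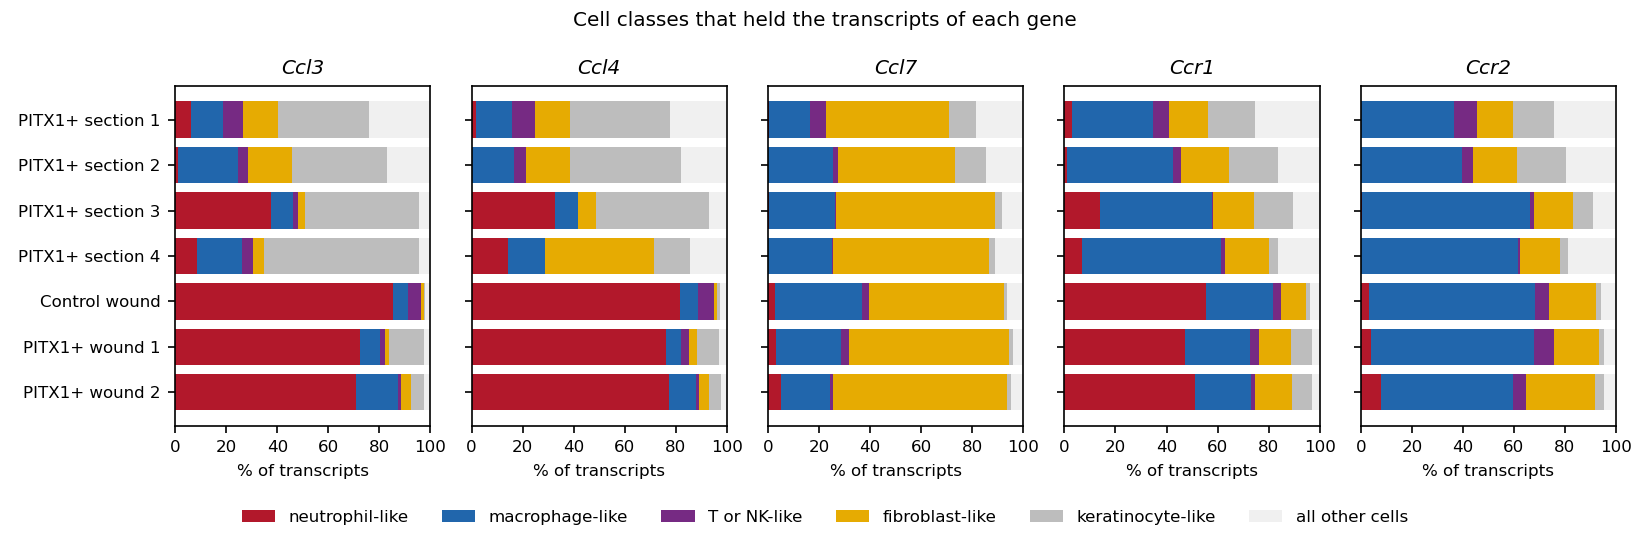
Share of each gene's transcripts found in each cell class, in % of the gene's transcripts, as stacked bars for the 4 PITX1+ unwounded sections and the 3 wounds. In the wounds the neutrophil-like cells take 70.7% to 85.2% of Ccl3 and fibroblast-like cells 53.0% to 68.1% of Ccl7.

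**Figure D3:**
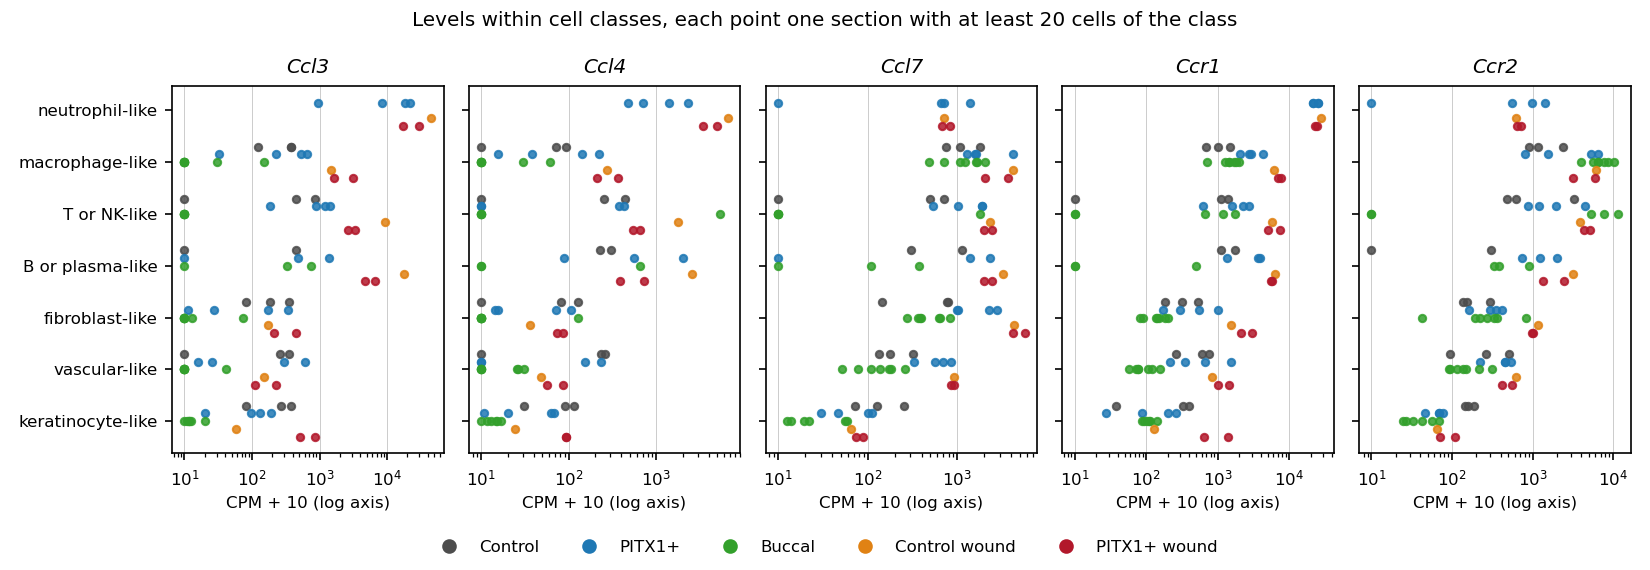
Level of each gene within 7 cell classes, as CPM on a log axis after adding 10, each point a section with at least 20 cells of the class. Neutrophil-like cells of the wounds stand apart for Ccl3, at 17077 to 44856 CPM, and Ccr2 is highest in macrophage-like or T or NK-like cells.

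In macrophage-like cells of the wounds against those of unwounded male skin, 3 of the 5 genes passed, where 38.6% of the genes tested passed in either direction, 19.5% higher and 19.1% lower: Ccl3 at a log2 fold change of 4.03 (SE 0.71, edgeR adjusted p = 0.00409), Ccl4 at 4.20 (SE 0.68, adjusted p = 0.00273) and Ccr1 at 1.5 (SE 0.24, adjusted p = 0.00274). Counted at any quality, Ccl4 was at 1.66 (adjusted p = 0.0217). Ccl7 (adjusted p = 0.765) and Ccr2 (adjusted p = 0.944) did not pass there. The wounds' macrophage-like cells were spread over other clusters than those of unwounded skin. A cluster led by Mmp12 and Spp1 made up 19.7% of them in the Control wound and 24.9% and 50.9% in PITX1+ wounds 1 and 2, against 1.09% in Control section 3 and 2.92% and 0.843% in PITX1+ sections 3 and 4.

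Over all immune-like cells the same 3 genes passed (42.7% of the panel in either direction, 22.6% higher and 20.1% lower), at log2 fold changes of 4.26 for Ccl3, 4.89 for Ccl4 and 2.18 for Ccr1. The mix of these cells differed. Neutrophil-like cells were 3821 of 7441 in the Control wound and 12 of 1290 in Control section 3. Their part in the difference was not tested. In fibroblast-like cells all 5 passed (40.9% of the genes tested, 24.1% higher and 16.9% lower). Ccl7, the gene these cells hold most of, was at 4237, 5622 and 4114 CPM in the wounds against 760, 2744 and 971 CPM, a log2 fold change of 1.61 (SE 0.40, edgeR adjusted p = 0.0160). Ccr1 there was at 1524, 2141 and 2994 CPM against 174, 291 and 164 CPM, a log2 fold change of 3.27 (SE 0.39, adjusted p = 0.000875). Ccr2 was at 1146, 1015 and 964 CPM against 282, 409 and 337 CPM, a log2 fold change of 1.46 (SE 0.31, adjusted p = 0.00843). The part of neighbouring cells in these values was not tested. Without PITX1+ section 4 or PITX1+ wound 1, Ccl3 and Ccl7 no longer passed in fibroblast-like cells and 3 genes did, and counted at any quality Ccl4 did not pass (log2 fold change 0.42, adjusted p = 0.383). The Cxcl5-led cluster made up 25.4% of fibroblast-like cells in the Control wound and 43.4% and 52.5% in PITX1+ wounds 1 and 2, against 0.0290%, 0.291% and 0.0407% in the 3 unwounded male sections.

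The wounds were also followed along their length. The open part was taken as the longest run of 100 µm bins in which under 5% of cells were keratinocyte-like or sebaceous-like. It was 1900 µm long in the Control wound and 1400 and 2700 µm long in PITX1+ wounds 1 and 2. Ccl3 reached 38125, 13095 and 17848 CPM there, and 67.7%, 20.01% and 55.7% of its transcripts lay in it. The median cell there had 18, 25 and 29 transcripts against 71, 64 and 64 in the flanks. The study left the eschar, the crust of dead cells over a wound, out of its own analysis, and whether the open part holds such cells was not tested. Ccr1 was at 19879, 10208 and 16024 CPM in the open part. Ccl7 was at 1347, 2307 and 915 CPM there and Ccr2 at 1194, 1566 and 669 CPM. Both had far smaller shares of their transcripts in it than Ccl3, 4.80%, 5.16% and 5.16% for Ccl7 and 5.50%, 5.35% and 6.41% for Ccr2. The open part held 17.4%, 6.87% and 16.7% of the cells, but these had fewer transcripts each, so shares of cells and of transcripts are unlike measures. In whole sections Ccl7 was at 1739, 1945 and 1734 CPM and Ccr2 at 1344, 1274 and 1021 CPM. Both were thus higher in the open part in PITX1+ wound 1 and lower in it in the other wounds.

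In bins of 500 µm, Ccl3 and Ccr1 were highest at the centre of the open part in all 3 wounds, at 51969, 25711 and 29042 CPM for Ccl3 and at 25220, 15730 and 21288 CPM for Ccr1. The neutrophil-like share of cells in that bin was 87.8%, 57.1% and 71.5%. Ccl7 was highest away from the centre, in the bins at -1500 µm (4068 CPM), 2000 µm (3062 CPM) and -2000 µm (3401 CPM), and Ccr2 in those at 1000 µm (2737 CPM), 1000 µm (3303 CPM) and 4500 µm (1556 CPM). The bin at 1000 µm of the Control wound held 136 cells. In PITX1+ wound 1 a further stretch of Ccl3 lay beside the open part, and 33.3% of its Ccl3 transcripts were 500 to 1500 µm from the edge, with 11.8% in PITX1+ wound 2 and 22.8% in the Control wound. Bins beyond the longest run could also be poor in keratinocyte-like cells. At 1500 µm such cells made up 0.586% in PITX1+ wound 1 and 1.32% in the Control wound. Ccl3 was at 22709 and 32190 CPM there. Such bins count as flank, also where the open part is left out below, so the shares depend on the definition.

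Position also went with the level of Ccl3 inside the neutrophil-like class, and less with that of Ccr1. Ccl3 in these cells was at 55484, 45620 and 31385 CPM in the open part of the Control wound and PITX1+ wounds 1 and 2, and over 1500 µm from its edge at 21069, 16815 and 9229 CPM. Ccr1 in the same cells was at 27362, 27241 and 25447 CPM in the open part and at 30199, 23576 and 19905 CPM at that distance, higher there in the Control wound and lower in both PITX1+ wounds. Without the open part, all 5 genes still passed in whole sections, with Ccl3 at a log2 fold change of 4.55 (edgeR adjusted p = 0.0173) and Ccr1 at 3.64 (adjusted p = 0.00274). The share of the panel that passed without it is not given here.

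**Figure D4:**
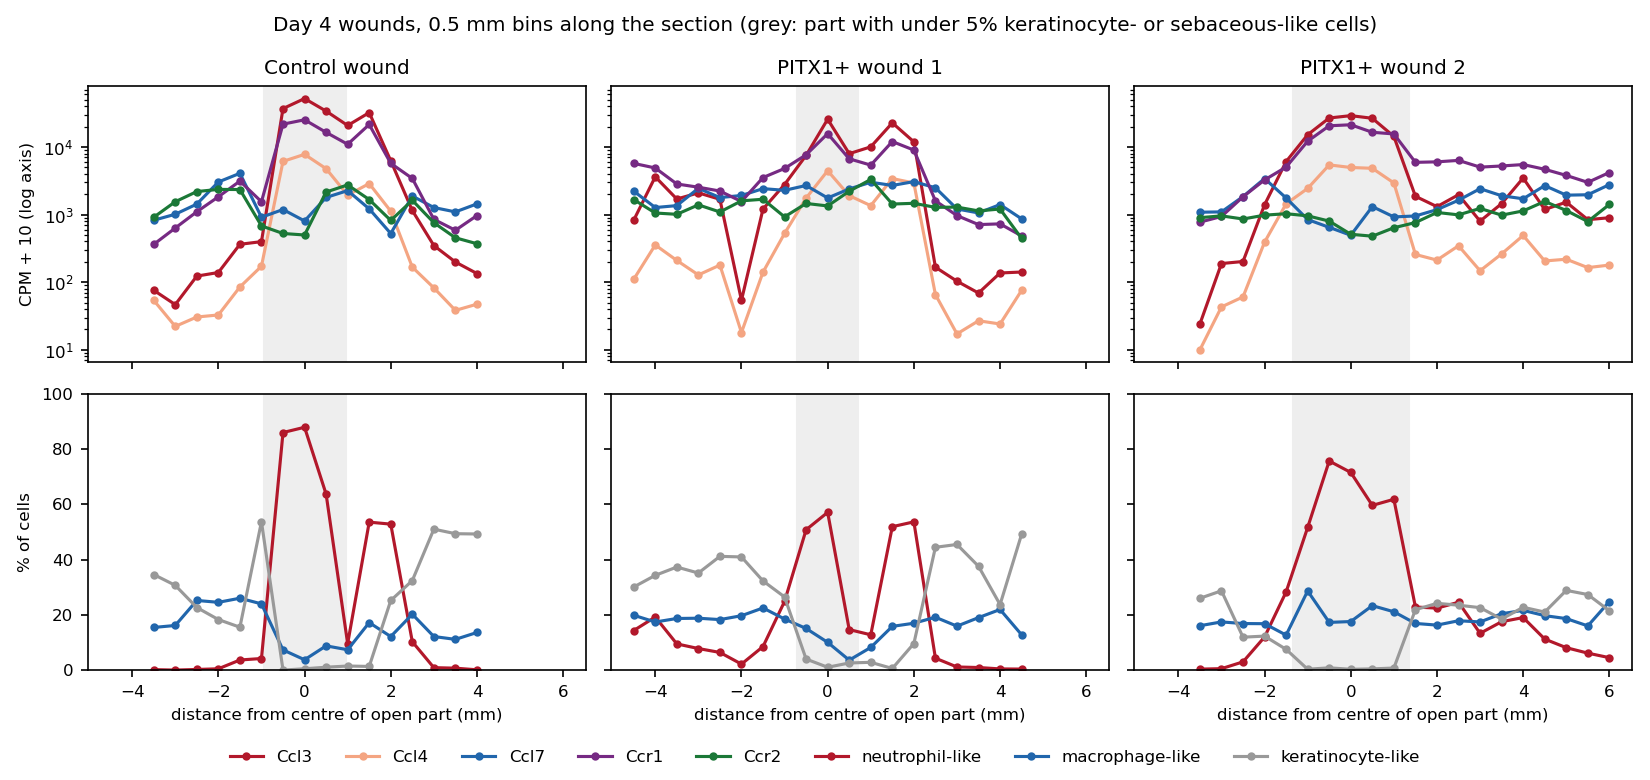
Profiles of the 3 wounds in 500 µm bins by distance from the centre of the open part (grey), with CPM plus 10 on a log axis above and the % of cells of 3 classes below. Ccl3 and Ccr1 peak at the centre with the neutrophil-like cells, which are 57.1% to 87.8% of cells there, and Ccl7 and Ccr2 peak away from the centre.

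The neutrophil-like class had 2 clusters that were found without the CC genes. In the first, led by Cxcl3, Tnf, Hdc and Trem1, Ccl3 was at 52161 CPM in the Control wound and 57207 CPM over the PITX1+ wounds. In the second, led by Cxcr2, Mmp9 and Il1b, it was at 15165 and 10791 CPM. Ccl4 followed the same order, at 7664 and 11689 CPM in the first and 2173 and 1772 CPM in the second. Ccr1 did not separate them, at 28599 and 26408 CPM in the first and 27771 and 22686 CPM in the second.

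The first cluster made up 86.5% of the neutrophil-like cells of the Control wound and 34.1% of those of the PITX1+ wounds, and the second 13.5% and 65.9%. The Ccl3 level of the Control wound was thus below that of the PITX1+ wounds in the first cluster and above it in the second, and over the whole class it was above both. With 1 Control wound this has no replicate check. The median cell of the first cluster had 17 and 19 transcripts in the Control and PITX1+ wounds, and that of the second 27 and 43.

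In unwounded skin the 5 genes were low, and the sources of Ccl3 and Ccl4 were hard to place. In Control section 1 Ccl3 was much the same in the large classes, at 372 CPM in keratinocyte-like, 340 CPM in fibroblast-like and 370 CPM in macrophage-like cells, with the mean negative control probe at 60.3 CPM over the section. The few neutrophil-like cells stood above the rest, at 18539, 8451 and 21514 CPM in PITX1+ sections 1 to 3, from 67, 12 and 133 transcripts. PITX1+ section 4 had 2 transcripts in 37 such cells. T or NK-like cells had the highest mean level among the classes ranked, at 432, 854 and 0 CPM in Control sections 1 to 3 and 1177, 863, 1441 and 175 CPM in PITX1+ sections 1 to 4. The mean negative control probe in T or NK-like cells was at 147 CPM over the Control and 121 CPM over the PITX1+ sections. In macrophage-like cells, the class ranked next, it was at 33.02 and 27.37 CPM. The part of background in this order was not tested.

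Ccl7 in macrophage-like cells was at 1048, 732 and 1774 CPM in the Control and 1572, 1282, 4200 and 1584 CPM in the PITX1+ sections, and in keratinocyte-like cells at 20.6 to 247 CPM in all 7. Fibroblast-like cells held the largest share of Ccl7 in PITX1+ skin, 48.2%, 45.7%, 62.4% and 61.0%. Ccr2 in macrophage-like cells was at 904, 1158 and 2343 CPM in the Control and 1558, 801, 6455 and 5316 CPM in the PITX1+ sections, with the 3 highest values on the male slide.

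Against Control, no change in the CPM of these genes was detected in whole PITX1+ sections. None of the 5 passed in edgeR, where 20.4% of the panel did (10.4% higher and 10.1% lower), none had an unadjusted p under 0.05, and DESeq2 called none. Ccl3 was at 359 and 259 CPM in Control and 330 and 192 CPM in PITX1+ sections of the female slide, and Ccl7 at 440 and 180 against 635 and 446 CPM. Ccr1 was at 533 and 366 against 899 and 590 CPM on that slide. In CPM the groups overlapped for all 5 genes once the male sections, given above, were added. The negative control probe was at 28.9 to 60.3 CPM in Control and 7.97 to 34.7 CPM in PITX1+ sections. Relative to it, Ccr1 was 7.01 to 9.15 times as high in Control and 25.9 to 32.1 times in PITX1+ sections. Ccl7 was 3.45 to 17.8 and 18.3 to 78.1 times as high. By this measure Ccl3, Ccl4 and Ccr2 overlapped, and the part of background was not tested. Per 1000 cells the groups did not overlap for Ccl7, at 7.39 to 18.6 transcripts in Control and 32.9 to 60.4 in PITX1+ sections, or for Ccr1, at 9.30 to 22.6 and 23.7 to 53.0. With the number of cells as library size these 2 genes passed, at log2 fold changes of 1.45 for Ccl7 (edgeR adjusted p = 0.0297) and 1.37 for Ccr1 (adjusted p = 0.0252), where the median panel gene was at 0.99. How many panel genes also separated per 1000 cells was not counted, and the share of the panel that passed with this library size is not given here.

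In immune-like cells 1 of the 5 genes passed, where 2.74% of the panel did (1.83% higher and 0.915% lower). It was Ccr1, at 1126 and 928 CPM in Control and 4175 and 2686 CPM in PITX1+ sections of the female slide, and at 1458 CPM in Control against 3606 and 2252 CPM in PITX1+ sections of the male slide. Every PITX1+ section lay above every Control section on both slides. The log2 fold change, with slide as a covariate, was 1.53 (SE 0.31, edgeR adjusted p = 0.0295). The call was lost without the slide covariate (adjusted p = 0.420) and with 60 clusters (adjusted p = 0.0508). It was also lost without Control section 1 (adjusted p = 0.228) or 2 (0.241) or PITX1+ section 1 (0.151), 2 (0.0967) or 3 (0.0535), with the fold change between 1.28 and 1.95 over the 7 sets of 6 sections. Without PITX1+ section 4, Ccl3 (adjusted p = 0.0276) and Ccl7 (0.0428) passed as well. The interaction of condition and slide did not pass (adjusted p = 0.462).

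The same gene in macrophage-like cells was at 1007, 671 and 1478 CPM in the Control and 4354, 2767, 2929 and 2046 CPM in the PITX1+ sections, again without overlap, and did not pass (log2 fold change 1.39, SE 0.38, edgeR adjusted p = 0.101). None of the 5 passed there, where 0.932% of the genes tested did (0.621% higher and 0.311% lower), and 1 had an unadjusted p under 0.05. With DESeq2 Ccr1 passed (adjusted p = 0.0250), and in edgeR without Control section 3 (adjusted p = 0.00831) or PITX1+ section 4 (adjusted p = 0.0314). Neutrophil-like cells, which carry the most Ccr1, were 0, 0 and 12 in Control and 37 to 209 in PITX1+ sections. Of the Ccr1 transcripts of immune-like cells they held 92 of 1330, 36 of 1557, 133 of 555 and 46 of 418 in PITX1+ sections 1 to 4 and 2 of 67 in Control section 3. They are not among the macrophage-like cells compared here, and their part in the difference over immune-like cells was not tested. The cluster led by Mmp12 made up 0.142% and 0.598% of macrophage-like cells in Control and 14.6% and 33.8% in PITX1+ sections of the female slide, and 1.09% against 2.92% and 0.843% on the male slide. Its part in the difference was not tested.

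In fibroblast-like cells none of the 5 passed, where 11.3% of the panel did (7.62% higher and 3.66% lower), and 1 had an unadjusted p under 0.05. That gene, Ccl7, was at 783 and 133 CPM in Control and 2236 and 1015 CPM in PITX1+ sections of the female slide, and at 760 against 2744 and 971 CPM on the male slide. Each PITX1+ section exceeded each Control section, and the log2 fold change was 1.36 (SE 0.45, edgeR adjusted p = 0.0689). The clusters of the class differed as well, and not alike on both slides. The one led by Cxcl5, with Ccl7 at 8110 CPM over all PITX1+ sections, was 0.0924% and 0.0445% of fibroblast-like cells in Control and 9.24% and 1.24% in PITX1+ sections of the female slide, and 0.0290% against 0.291% and 0.0407% on the male slide. One led by Efemp1 and Lum, with Ccl7 at 3025 CPM, was 1.69% and 0.356% against 0.974% and 3.08% on the female slide, and 12.7% against 29.1% and 29.4% on the male slide. Their part in the difference was not tested. Without PITX1+ section 4 it was 1.61 (adjusted p = 0.00861), and by DESeq2 1.27 (adjusted p = 0.0406). The other 4 genes had adjusted p of 0.308 or more.

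Measured as CPM of whole sections, Ccl3, Ccl4, Ccl7 and Ccr1 were lower in buccal mucosa than in Control skin, while Ccr2 did not pass in whole sections and was higher within macrophage-like cells. This comparison uses the Control sections used above, and tissue and slide cannot be told apart. Immune-like cells were 13.4%, 8.36% and 10.2% of the cells in Control sections 1 to 3 and 2.94% to 7.64% in buccal sections. The part of this mix of cells in the differences was not tested. The background differed as well, with a negative control probe at 28.9 to 60.3 CPM in Control and 1.99 to 10.1 CPM in buccal sections. Relative to that probe, Ccl7 was 3.45 to 17.8 times as high in Control and 10.8 to 52.1 times in buccal sections, Ccr1 was 7.01 to 9.15 and 12.6 to 63.4 times, and Ccl4 was 0.233 to 1.99 and 0.576 to 3.70 times. Ccl3 was 2.87 to 5.95 times as high in Control and at most 3.26 times in buccal sections. The part of background in the differences was not tested. In the 7 buccal sections Ccl3 was at 1.62 CPM at the lowest, 4.65 at the median and 29.8 at the highest, against 359, 259 and 82.8 CPM in Control skin. Ccl4 was at 2.80, 3.61 and 37.3 CPM against 120, 95.2 and 6.72 CPM. Ccl3 did not overlap between tissues, and Ccl4 did.

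Ccl7 was at 43.8, 93.8 and 321 CPM at the lowest, median and highest buccal section against 440, 180 and 515 CPM, and Ccr1 at 76.2, 123 and 134 CPM against 533, 366 and 264 CPM. Ccr2 was at 130, 180 and 328 CPM against 207, 188 and 472 CPM. Ccr1 alone of these 3 was separate between tissues.

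In edgeR 4 of the 5 genes passed, all lower in buccal mucosa, where 38.1% of the panel passed in either direction, and 16.5% were higher and 21.6% lower. The log2 fold change was -4.67 (SE 0.70, adjusted p = 0.000827) for Ccl3, -2.97 (SE 0.80, adjusted p = 0.0137) for Ccl4, -1.25 (SE 0.45, adjusted p = 0.0453) for Ccl7 and -1.14 (SE 0.32, adjusted p = 0.0161) for Ccr1. Ccr2 did not pass (adjusted p = 0.915). The call for Ccr1 turned with the quality minimum. When transcripts of any quality were counted Ccr1 was higher in buccal mucosa, at a log2 fold change of 0.60 (adjusted p = 0.333), and only Ccl3 passed (-2.85, adjusted p = 0.000327). On the buccal slide 17.8% of decoded Ccr1 transcripts reached the minimum against 79.9% and 80.3% on the unwounded skin slides. Leaving out any 1 of the 10 sections lost at least 1 call other than that of Ccl3. Without Control section 1 only Ccl3 passed, 2 genes did without Control section 2, Buccal section 1 or Buccal section 2, and 3 did without any other.

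Within buccal mucosa both receptors were highest in macrophage-like cells among the ranked classes. Ccr2 there was at 4015 CPM at the lowest, 6469 at the median and 10172 at the highest section against 904, 1158 and 2343 CPM in Control skin, with no overlap. The difference was uneven among clusters of the class. Over all sections of a tissue, Ccr2 was at 15301 CPM in buccal and 2146 CPM in Control cells of the cluster led by Mgl2 and Napsa, and at 1512 and 848 CPM in that led by Cd209f. Ccr2 was the 1 gene of the 3 tested that passed (22.3% of the genes tested, 9.64% higher and 12.7% lower), with a log2 fold change of 1.73 (SE 0.39, edgeR adjusted p = 0.00818). Ccr1 was at 0.01 (SE 0.37, adjusted p = 0.971) and Ccl7 at -0.35 (SE 0.43, adjusted p = 0.575). Without Control section 2 no gene passed, and with 60 clusters, where a cluster led by Napsa, Mgl2 and Cd74 counted as dendritic-like, none did. Ccl3 and Ccl4 were below the minimum count for a test in the immune-like, macrophage-like and fibroblast-like cells of this comparison. In macrophage-like cells they had a transcript in 2 of 7 sections each.

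Over all immune-like cells none of the 3 genes tested passed, where 14.6% did (5.77% higher and 8.85% lower), with Ccr2 at a log2 fold change of 1.95 (SE 0.64, adjusted p = 0.0642) and 1 of them under an unadjusted p of 0.05. Ccr1, lower in whole sections, was at 0.09 here (SE 0.51, edgeR adjusted p = 0.921) and Ccl7 at -0.09 (SE 0.58, adjusted p = 0.921). By DESeq2 Ccr2 passed (adjusted p = 0.0110), and it passed in edgeR without Control section 3 (adjusted p = 0.00416) or Buccal section 6 (adjusted p = 0.0360). In fibroblast-like cells Ccr1 passed, the 1 gene of 3 tested to do so, where 31.6% did (13.3% higher and 18.2% lower). It was at 71.1 CPM at the lowest, 131 at the median and 192 at the highest buccal section against 530, 308 and 174 CPM (log2 fold change -1.74, SE 0.36, adjusted p = 0.00319). The fibroblast-like cells of the tissues lay in different clusters, since one led by Angptl1 and Abca8a held 78.3% of them in buccal mucosa and 1.80% in Control skin. With transcripts over the nucleus only, Ccr1 was below the minimum count for a test, and with the number of cells as library size it did not pass (log2 fold change -0.56, adjusted p = 0.426). Without Control section 3, Ccl3 and Ccl4 were tested and passed as well.

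Within a section the class with the highest mean level was set against the next. Both classes were picked from the values of these same sections, so the sign of the mean was fixed beforehand. The p-values therefore give no support for the choice of the leading class. In buccal mucosa Ccr1 was 3.40 (SD 0.76, n = 7) higher in macrophage-like than in fibroblast-like cells on the log2 scale after adding 10 CPM, and Ccr2 4.80 (SD 1.33, n = 7), each in 7 of 7 sections. The exact two-sided sign-flip p was 0.0156, the smallest that 7 sections allow, and 0.0781 after adjustment over the 10 comparisons. In unwounded skin Ccl7 was 0.73 (SD 0.89, n = 7) higher in macrophage-like than in fibroblast-like cells, in 6 of 7 sections (exact p = 0.0625, adjusted p = 0.156). The neighbours macrophage-like and T or NK-like did not differ beyond their spread for Ccr1 (1.38, SD 2.74) or Ccr2 (0.51, SD 0.66) in skin, and no comparison passed. With 60 clusters the Ccr2 difference was 0.05 (SD 0.62), with macrophage-like cells higher in 2 of 7 sections. With 7 sections, 1 comparison alone could not have passed after adjustment over 10.

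The last question was whether receptor cells lay near ligand cells. Immune-like cells within 50 µm of another cell with a ligand transcript were compared with those farther away in the same section. In unwounded skin none of the 3 pairs described here passed (exact two-sided sign-flip tests over 7 sections, adjusted p = 0.984 for each, adjusted over 5 pairs). The smallest p that 7 sections allow is 0.0156, so 1 pair alone could not have passed after this adjustment. The mean log2 ratio was 0.41 (SD 0.92, n = 7) for Ccr2 near Ccl7 cells, higher near in 6 of 7 sections (exact p = 0.281), 0.14 (SD 0.70) for Ccr1 near Ccl3 cells and -0.01 (SD 0.31) for Ccr1 near Ccl7 cells. The ratio for Ccr2 was above that of 97.0% of the 328 panel genes, whose median was -0.15, but with only transcripts over the nucleus it was 0.03, above 71.3% of them. With 100 µm it was 0.96 and without Control section 2 it was 0.72, each with an adjusted p of 0.156.

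In the immune-like cells of the wounds Ccr1 was higher near Ccl3 cells and Ccr2 near Ccl7 cells. Ccr1 was at 15946 CPM near Ccl3 cells and 5459 CPM far from them in the Control wound, at 13779 and 7745 CPM in PITX1+ wound 1, and at 14744 and 6497 CPM in PITX1+ wound 2. Ccr2 was at 5046 CPM near Ccl7 cells and 1174 CPM far from them, at 4460 and 882 CPM, and at 2299 and 733 CPM. Ccr1 was lower near Ccl7 cells, at 10896 against 20105 CPM, 11251 against 21184 CPM and 13427 against 21478 CPM. All 3 wounds gave the same direction for each pair, and no test against 0 was run over them. The log2 ratio of Ccr1 near Ccl3 cells was 1.54, 0.83 and 1.18 where the median panel gene was at 0.48, 0.82 and -0.22, so PITX1+ wound 1 was close to its panel median.

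These ratios moved with the kind of immune cell. In the Control wound 3746 of the 5835 immune-like cells near Ccl3 cells were neutrophil-like and 75 of the 1606 far from them, while 1783 of 4971 near Ccl7 cells and 2038 of 2470 far from them were. In macrophage-like cells alone, Ccr1 near Ccl3 cells was at log2 ratios of 0.48, 0.39 and 0.71, where the median panel gene was at 0.44, 0.19 and -0.10. Ccr2 near Ccl7 cells was at 1.08, 1.37 and 0.81 and Ccr1 near Ccl7 cells at 0.02, -0.25 and -0.29, where the median panel gene was at 0.02, -0.15 and -0.22. In neutrophil-like cells alone, Ccr1 near Ccl7 cells was at 0.07, -0.28 and -0.24. The median panel gene in those cells was at 0.49, 0.63 and -0.08. In fibroblast-like cells both receptors were higher near Ccl7 cells, Ccr2 by 1.63, 0.82 and 1.18 and Ccr1 by 2.05, 1.35 and 0.87, so the lower Ccr1 near Ccl7 cells was measured over the immune-like cells together and not in this class. Set against unwounded skin, the wounds had a log2 ratio 0.82 lower for Ccr1 near Ccl7 cells (exact permutation p = 0.00833, the smallest that 3 against 7 sections allow, adjusted p = 0.0417 over 5 pairs). The difference was 1.61 for Ccr2 near Ccl7 cells (exact p = 0.0333, adjusted p = 0.0833) and 1.05 for Ccr1 near Ccl3 cells (exact p = 0.05, adjusted p = 0.0833). This comparison was not among those planned, where the wounds were to be given as values. Of the 7 skin sections 4 were on the female slide, while the wounds were all male and on a slide of their own. Wounding, slide and sex therefore cannot be told apart in these p-values.

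**Figure D5:**
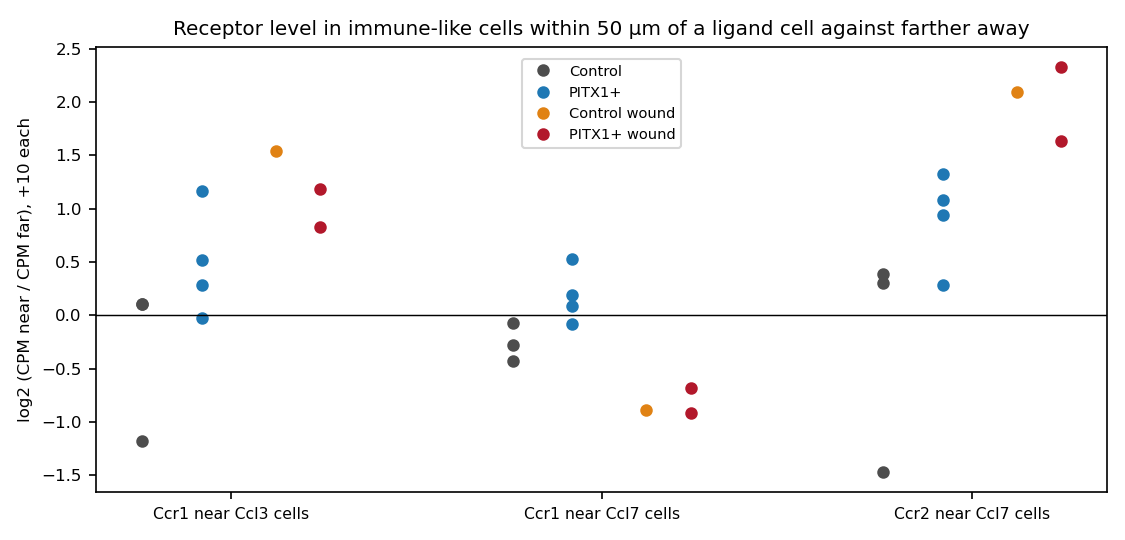
Log2 ratio of receptor level in immune-like cells within 50 µm of a ligand cell over those farther away, 10 CPM added to each, each point a section of unwounded skin or a wound. In the wounds Ccr2 near Ccl7 cells lies at 1.64 to 2.33 and Ccr1 near Ccl7 cells at -0.91 to -0.68.

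Other CC chemokines of the panel are Ccl8 and Ccl12, monocyte chemoattractants, Ccl19, a ligand of CCR7 that guides T cells and dendritic cells, and Ccl27a, a chemokine of keratinocytes. In whole sections of the wounds 1 of these 4 passed, where 32.3% of the panel did (22.9% higher and 9.45% lower). It was Ccl12, which was at 336, 272 and 164 CPM against 94.0, 101 and 55.3 CPM in unwounded male skin (log2 fold change 1.68, SE 0.44, edgeR adjusted p = 0.0280). The call was lost without PITX1+ section 4 (adjusted p = 0.120), PITX1+ wound 1 (0.134) or PITX1+ wound 2 (0.0606). Ccl8, at 7841, 6888 and 4407 CPM against 6701, 3526 and 4644 CPM, did not pass (adjusted p = 0.296). Ccl19 (adjusted p = 0.165) and Ccl27a (adjusted p = 0.374) did not pass there. Within classes, those that passed in edgeR were lower in the wounds. In immune-like cells they were Ccl8 (log2 fold change -1.62, adjusted p = 0.00173) and Ccl19 (-1.64, 0.0190). Ccl19 also passed in macrophage-like cells (-2.15, adjusted p = 0.0113). In fibroblast-like cells Ccl19 (-1.64, adjusted p = 0.0412) and Ccl27a (-1.16, 0.0412) did. Of the genes tested 20.1%, 19.1% and 16.9% were called lower in these classes. In whole sections of buccal mucosa all 4 passed and were lower in CPM, where 38.1% of the panel passed and 21.6% were lower, with log2 fold changes from -2.65 for Ccl8 to -1.67 for Ccl19. Ccl8 rested on Control section 3, at 6701 CPM against 738 and 402 CPM in the other Control sections, and without it the log2 fold change was -0.39 (adjusted p = 0.606). Ccl12 did not pass without Control section 1, Buccal section 1 or Buccal section 2 (adjusted p = 0.118, 0.0593 and 0.0614), nor Ccl19 without either of those buccal sections (0.0714 and 0.0691). With the number of cells as library size none of the 4 passed (adjusted p from 0.0900 for Ccl27a to 0.297 for Ccl19), and at any quality Ccl12 did not (0.476). Relative to the negative control probe Ccl27a was 8.14 to 15.4 times as high in Control and 18.4 to 50.5 times in buccal sections. In whole PITX1+ sections none of the 4 passed, and Ccl27a had an unadjusted p under 0.05 (adjusted p = 0.0818).

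Across 94 sums of 1 class in 1 section, over 17 sections and 11 classes that share slides and depth, Ccl3 was most like Ccl4 (r = 0.93), then Trem1 (r = 0.92) and Cxcl3 (r = 0.91), which lead the first neutrophil-like cluster. Ccl4 was most like Ccl3, Trem1 (r = 0.90) and Cxcl3 (r = 0.89). Ccr1 was most like Itgam (r = 0.91), Cd52 (r = 0.91) and F10 (r = 0.90). Ccl7 was most like Ctss (r = 0.90), Ms4a7 (r = 0.88) and C1qa (r = 0.87), and Ccr2 most like Ms4a7 (r = 0.89), Ctss (r = 0.89) and C3ar1 (r = 0.88). Ccl3 and Ccl7 were less alike (r = 0.55), and so were Ccl3 and Ccr2 (r = 0.50).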

How the data were processed

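Xenium in situ profiling covered 328 genes and 20 negative control probes on 4 slides. The authors deposited the instrument output: a quality score, position and cell for each decoded transcript, and raw counts per cell, without normalization. Software versions and the genome build are not given in the sources used here. Transcripts with a score of at least 20 were counted, and cells with at least 10 of them were kept. Cells linked within 100 µm (200 µm for wounds) formed sections where they numbered at least 2000. Conditions came from position, since the labels give them per slide only. Doublets were not called.

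Cells of all slides were clustered (k-means, 45 clusters, 40 principal components, 318 genes without the 10 CC genes; scikit-learn 1.9.0, Python 3.11.15, numpy 2.4.6, pandas 2.3.3). A cluster was named for a cell type where at least 3 markers of its list were raised, and a low-depth cluster led by Mcpt4 (0.243% to 12.6% of the cells of a section) was left unnamed by a rule added after the clusters were seen. Counts summed per section, or per class and section, were tested in edgeR 4.0.16 (R 4.3.3; quasi-likelihood, TMM, low-count filter) over all genes of the panel that passed the filter, with Benjamini-Hochberg adjustment at 0.05. The slide was a covariate for PITX1+ against Control and the condition for wounds against unwounded male skin. DESeq2 1.42.0 was an alternative. The scripts were tested on simulated data. Log2 ratios used a pseudocount of 10 CPM, and their tests over sections were exact and two-sided (scipy 1.17.1). Alternatives changed the library size, test, gene filter, slide covariate, transcript and cell filters, number of clusters and distance, and left out each section.

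The genes named are the 5 members, 4 other CC chemokines, Pitx1, and for each member the 3 panel genes with the highest correlation over class sums of at least 20000 transcripts. Leading genes of clusters, named after their values were seen, only identify the clusters. The members and lists were chosen with earlier results of these data known. Results for 1 further gene of the panel are not reported here. Total transcripts per section, 134076 to 5560941, set the precision of each level.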

Additional observations from a re-analysis of the deposited data

Results flagged for a closer look

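Buccal section 3 lay apart from the other buccal sections for 6 genes in Dixon's test. Ccl3 was at 29.8 CPM there against 1.62 to 9.10 CPM in the other 6, Ccl4 at 37.3 CPM against 2.80 to 8.11 CPM, and Ccl7 at 321 CPM against 43.8 to 131 CPM. Ccl12 was at 104 CPM against 15.1 to 38.9 CPM, Ccl19 at 358 CPM against 50.4 to 174 CPM, and Ccl27a at 209 CPM against 75.9 to 108 CPM. This section was the smallest, with 2449 cells, 134076 transcripts and 2 keratinocyte-like cells, and its values of Ccl3 and Ccl4 rest on 4 and 5 transcripts. In Buccal section 6, Ccr1 was at 76.2 CPM against 112 to 134 CPM in the rest. Salivary-like cells made up 43.5% of the cells of that section, against 1.32% or less in the other buccal sections, and macrophage-like cells 1.24%. Their part in the value was not tested. Buccal sections 3 and 6 were kept in the buccal comparisons. Of 20 groups of sections examined, 7 held such a section. The groups were 10 genes measured on the same PITX1+ and the same buccal sections, so they are not independent and their number cannot be set against a chance rate.

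Ccr1 in immune-like cells near Ccl7 cells, over those far from them, differed between wounds and unwounded skin by -0.82 on the log2 scale (exact permutation p = 0.00833, adjusted p = 0.0417). The wounds ran from -0.91 to -0.68 and the skin sections from -0.42 to 0.52. The skin sections included 4 of the female slide and the wounds were male on another slide, so wounding, slide and sex cannot be told apart. Within classes the 3 wounds were at 0.02, -0.25 and -0.29 in macrophage-like and 0.07, -0.28 and -0.24 in neutrophil-like cells. The median panel gene was at 0.02, -0.15 and -0.22 in the first class and at 0.49, 0.63 and -0.08 in the second. The part of the mix of classes was not tested.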

How the results depend on the processing

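The share of the panel that passed under each alternative is not given here, so the counts below show only how the calls moved. For PITX1+ against Control in whole sections, 2 of the 5 genes passed with the number of cells as library size and 1 with transcripts of any quality. In immune-like cells 0 passed without the slide covariate or with 60 clusters, and 2 with transcripts over the nucleus only or with the low-depth cluster kept. In macrophage-like cells 1 passed with total counts or cells as library size, DESeq2, nuclear transcripts or the low-depth cluster, and in fibroblast-like cells 1 with total counts, cells or DESeq2. For buccal mucosa, 2 passed in whole sections with cells as library size and 1 with any quality. In its immune-like cells 1 passed with total counts, cells, DESeq2, no gene filter, 30 clusters or the low-depth cluster. In its macrophage-like cells 2 passed with cells or no gene filter and 0 with 60 clusters, and in its fibroblast-like cells 0 with cells or nuclear transcripts (Ccr1 then had too few counts to test), 3 with no gene filter and 2 with any quality. For wounds, 3 passed in whole sections with cells as library size. That library size moved the median of all genes by 0.99, 1.14 and 0.26 (log2) in the whole-section comparisons of PITX1+, buccal mucosa and wounds. Leaving out 1 section gave 0 to 3 (immune-like), 0 to 1 (macrophage-like) and 0 to 1 (fibroblast-like) for PITX1+. It gave 1 to 3 (whole), 0 to 1, 0 to 1 and 1 to 3 for buccal mucosa, and 3 to 5 in whole sections and fibroblast-like cells of wounds.

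Some log2 values changed sign. Ccl4 in macrophage-like cells of PITX1+ skin was at -0.23 with any quality, and Ccr1 in whole buccal sections at 0.60. Ccl7 in buccal fibroblast-like cells was at 0.56 with cells as library size and ran from -0.855 to 0.0785 as 1 section was left out, the highest without Control section 3. In skin, Ccr1 near Ccl3 cells was at -0.0751 within 100 µm and -0.0890 in macrophage-like cells, and Ccr1 near Ccl7 cells at 0.55 within 100 µm, 0.18 in macrophage-like cells and 0.0688 and 0.0453 with 30 and 60 clusters. The first class of Ccl3 against the next was at -0.31 in skin with 30 clusters, and in buccal mucosa at -0.60 with nuclear transcripts and -0.61 with 30 clusters. That of Ccl4 in buccal mucosa was at -0.17 with at least 20 transcripts per cell and -0.16 and -0.27 with 30 and 60 clusters. Leaving out 1 section gave -0.0312 to 0.36 for Ccr1 near Ccl3 cells, -0.0958 to 0.0623 for Ccr1 near Ccl7 cells, and -0.37 to 0.42 and -0.20 to 0.46 for the buccal class order of Ccl3 and Ccl4. The causes were not tested. Sections could not be paired between groups because they carry no shared replicate numbers, so pairing was used only within a section.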
